A study of Homo sapiens with 12 samples.

Results

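The axon guidance ligands and receptors expressed in HepG2 cells were described across low glucose, high glucose and valproic acid (VPA). Members were chosen by symbol alone, as the genes of the count table named for semaphorins, plexins, neuropilins, ephrins, Eph receptors, netrins, netrin-G proteins, UNC5 receptors, Slits and Robos. This gave 50 of the 16389 genes in the table, of which 26 encode ligands and 24 receptors. They comprised 14 semaphorins, 11 plexins and neuropilins, 7 ephrins, 8 Eph receptors, 6 netrins and netrin receptors, and 4 Slits and Robos. DCC, the classical netrin receptor, was also looked for but had no row in the count table.

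RNA-seq was performed on HepG2, an established human liver cancer cell line, in 4 groups of 3 libraries. LG cells were grown for 48 h in medium with 5.5 mM glucose and HG cells for 48 h in medium with 20 mM glucose. LGV and HGV cells were grown the same way and then received 1 mM VPA for 12 h, while LG and HG cells were the untreated controls. Whether the controls were kept for these further 12 h is not stated. If they were not, VPA and the longer culture cannot be told apart. VPA is an antiepileptic drug that inhibits histone deacetylases. All groups were of 1 transformed line, and the labels do not say whether the 3 libraries of a group came from separate cultures, so p-values measure the spread between these libraries, which may be technical.

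Axon guidance proteins steer growing nerve fibres by attraction or repulsion, and most of them also act outside the nervous system in vessel growth, epithelial boundaries and cell migration. Semaphorins signal through plexins, with neuropilins as co-receptors for most secreted class 3 semaphorins, while netrins act through DCC and UNC5 receptors and Slits through Robos. Ephrins are bound to the membrane and signal at cell contacts to Eph receptor tyrosine kinases, with ephrin-A ligands preferring EphA and ephrin-B ligands preferring EphB receptors, and the ligand-bearing cell can itself be signalled to in return.

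Between 29798442 and 45572694 reads per library were counted on genes, and levels are given as CPM (counts relative to library size) scaled with TMM factors, which ranged from 0.879 to 1.095. A count of 3 reads, used as the floor, stood for 0.0713 to 0.112 CPM in a library and covers counting error only. The labelled cell type was checked against 10 hepatocyte markers, all of which were measured. Their summed level was 62174 to 66711 CPM in LG, 61528 to 69436 in HG, 46310 to 48127 in LGV and 55554 to 69920 in HGV. In LGV against LG 7 of these 10 markers were called lower, where 19.9% of all genes were. In HGV against HG 2 were called lower and 1 higher, where 20.2% and 25.8% of all genes were. Of 12 neuron markers only RBFOX3, SYP and TUBB3 were measured, and their sum was 8.38 to 11.1 CPM in untreated libraries, 25.5 to 28.7 CPM in LGV and 37.8 to 50.0 CPM in HGV. SYP, which encodes synaptophysin, carried this rise, with a log2 fold change of 2.45 in HGV against HG, while TUBB3 differed by 0.16 (FDR = 0.536). Of 8 endothelial markers CDH5, EGFL7, ESAM and VWF were measured, and their sum was 5.96 to 12.4 CPM in untreated and 24.7 to 37.8 CPM in VPA-treated libraries. ESAM carried most of this rise, with means of 3.31 CPM in HG, 19.1 in HGV, 7.92 in LG and 28.5 in LGV. CDH5 and EGFL7 were also called higher in HGV against HG, while VWF was called in neither medium (FDR = 0.576 in high and 0.716 in low glucose). Of 8 stromal markers 3 were measured, and their sum ranged from 43.7 to 78.0 CPM over all libraries. Within this sum COL1A1 was called higher and ACTA2 lower with VPA in both media, and PDGFRB was called lower in low glucose alone. The other listed markers, such as MAP2 and PECAM1, had no row in the count table, and the part of these cell types in the results below was not tested.

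The sequences just upstream of 7 genes with large VPA responses are shown because VPA acts on chromatin and these genes moved in both directions. They are the 250 bases before the first listed RefSeq start (GRCh38.p14), written 5′ to 3′ on the strand of the gene. Capitals mark every GC box, searched as GGGCGG and its reverse complement CCGCCC, a motif bound by Sp1-family factors, with overlapping matches counted separately. EPHB2, EPHB3, EFNB2, EFNA3 and SEMA4D were higher with VPA, and EFNA1 and SEMA4G were lower.
EPHB2, chr1:22710588-22710837, plus strand: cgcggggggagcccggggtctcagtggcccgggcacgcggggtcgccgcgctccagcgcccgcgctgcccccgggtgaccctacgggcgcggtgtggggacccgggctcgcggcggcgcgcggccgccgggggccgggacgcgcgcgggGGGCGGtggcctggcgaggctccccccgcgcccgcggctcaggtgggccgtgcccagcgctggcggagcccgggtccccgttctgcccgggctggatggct
EPHB3, chr3:184561535-184561784, plus strand: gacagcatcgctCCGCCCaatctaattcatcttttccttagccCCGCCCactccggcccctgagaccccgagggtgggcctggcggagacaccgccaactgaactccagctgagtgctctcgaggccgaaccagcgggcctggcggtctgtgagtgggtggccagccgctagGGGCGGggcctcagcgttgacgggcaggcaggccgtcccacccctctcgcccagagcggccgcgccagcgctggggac
EFNB2, chr13:106535663-106535912, minus strand: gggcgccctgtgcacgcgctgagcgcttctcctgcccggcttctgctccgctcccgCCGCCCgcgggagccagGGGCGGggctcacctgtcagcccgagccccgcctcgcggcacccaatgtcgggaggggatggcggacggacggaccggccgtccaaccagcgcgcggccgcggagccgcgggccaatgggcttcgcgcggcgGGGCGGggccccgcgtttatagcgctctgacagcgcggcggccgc
EFNA3, chr1:155078587-155078836, plus strand: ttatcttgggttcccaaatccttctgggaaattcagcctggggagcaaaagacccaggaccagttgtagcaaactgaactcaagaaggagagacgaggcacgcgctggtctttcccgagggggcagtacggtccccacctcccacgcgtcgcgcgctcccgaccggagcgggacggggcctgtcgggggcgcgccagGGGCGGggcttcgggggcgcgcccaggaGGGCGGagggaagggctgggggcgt
SEMA4D, chr9:89495657-89495906, minus strand: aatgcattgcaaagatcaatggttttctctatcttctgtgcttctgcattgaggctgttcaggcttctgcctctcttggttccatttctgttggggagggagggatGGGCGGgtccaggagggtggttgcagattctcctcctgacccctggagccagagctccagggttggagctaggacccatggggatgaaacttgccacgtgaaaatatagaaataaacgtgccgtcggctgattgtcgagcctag
EFNA1, chr1:155127626-155127875, plus strand: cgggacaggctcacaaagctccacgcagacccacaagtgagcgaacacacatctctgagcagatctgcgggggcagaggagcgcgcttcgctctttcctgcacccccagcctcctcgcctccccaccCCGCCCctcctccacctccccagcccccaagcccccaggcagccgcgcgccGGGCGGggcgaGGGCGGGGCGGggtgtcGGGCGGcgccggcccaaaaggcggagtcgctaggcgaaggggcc
SEMA4G, chr10:100969254-100969503, plus strand: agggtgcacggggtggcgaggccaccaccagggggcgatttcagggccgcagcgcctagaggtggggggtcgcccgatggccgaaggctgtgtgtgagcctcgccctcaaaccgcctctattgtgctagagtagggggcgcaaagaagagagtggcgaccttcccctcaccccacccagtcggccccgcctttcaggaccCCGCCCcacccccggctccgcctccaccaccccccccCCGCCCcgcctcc

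GC boxes stood in all 7 of these windows, with 5 in EFNA1 and 1 each in EPHB2 and SEMA4D. Promoters were matched for 40 of the 50 members, and 85.0% of them held a GC box, against 66.4% of 10326 matched genes of the count table and 42.3% of all 27303 RefSeq genes with a promoter. The share was 88.0% of 25 matched members that rose in HGV against HG and 71.4% of 7 that fell. The median number of CpG dinucleotides was 19.5 in members, 21 in genes of the count table and 11 in all RefSeq genes. A CCAAT box (CCAAT or ATTGG) was found in 37.5% of members and 34.9% of genes of the count table. A TATAAA or TTTATA match was present in 2.5% of members and 5.37% of genes of the count table, and among members EFNB2 alone had one. The palindromic E-box CACGTG stood in 2.5% of members and 8.78% of genes of the count table. A match describes only these letters in this window, and the windows of rising and falling members were not tested against each other.

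Before treatment, each family was carried by 1 or a few members. Levels were compared between genes per kilobase of summed exons (CPM per kb, mean ± SD, n = 3). In LG the ephrin EFNA1 stood at 207 ± 29.3 CPM per kb, against 9.43 ± 1.11 for EFNA2, the next ephrin, and their libraries did not overlap. EFNA1 made up 91.1% of the summed ephrin level. EPHA2, a receptor for EFNA1, stood at 73.5 ± 19.6 CPM per kb, followed by EPHB4 at 40.5 ± 6.22 and EPHA1 at 2.403 ± 0.616. EPHB4 alone was 99.6% of the summed EphB level in LG.

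SEMA6B, a membrane-bound semaphorin, was the highest semaphorin at 44.5 ± 3.22 CPM per kb. The next places were held by SEMA4G at 21.7 ± 3.84, SEMA3B at 18.2 ± 4.24 and SEMA4C at 16.7 ± 1.81, whose neighbours in this order overlapped. Among plexins the order was PLXNB2 at 31.6 ± 3.403, PLXNB1 at 26.4 ± 1.33, PLXND1 at 15.1 ± 1.03 and PLXNA1 at 10.6 ± 0.952 CPM per kb, with no overlap between neighbours. ROBO1 stood at 15.8 ± 0.862 CPM per kb and was 98.9% of the Slit and Robo level. NTN4, a laminin-related netrin, was 70.8% of the netrin family level and UNC5B, a dependence receptor for netrins, was 24.9%. The untreated HepG2 cells held mainly EFNA1, EPHA2, EPHB4, SEMA6B, B-type plexins and ROBO1, while in LG EFNB2, EFNB3, EPHB2, EPHB3, EPHB6, NTNG2, UNC5A and SLIT2 ranged from 0 to 0.123 CPM per kb in their group means.

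**Figure D1:**
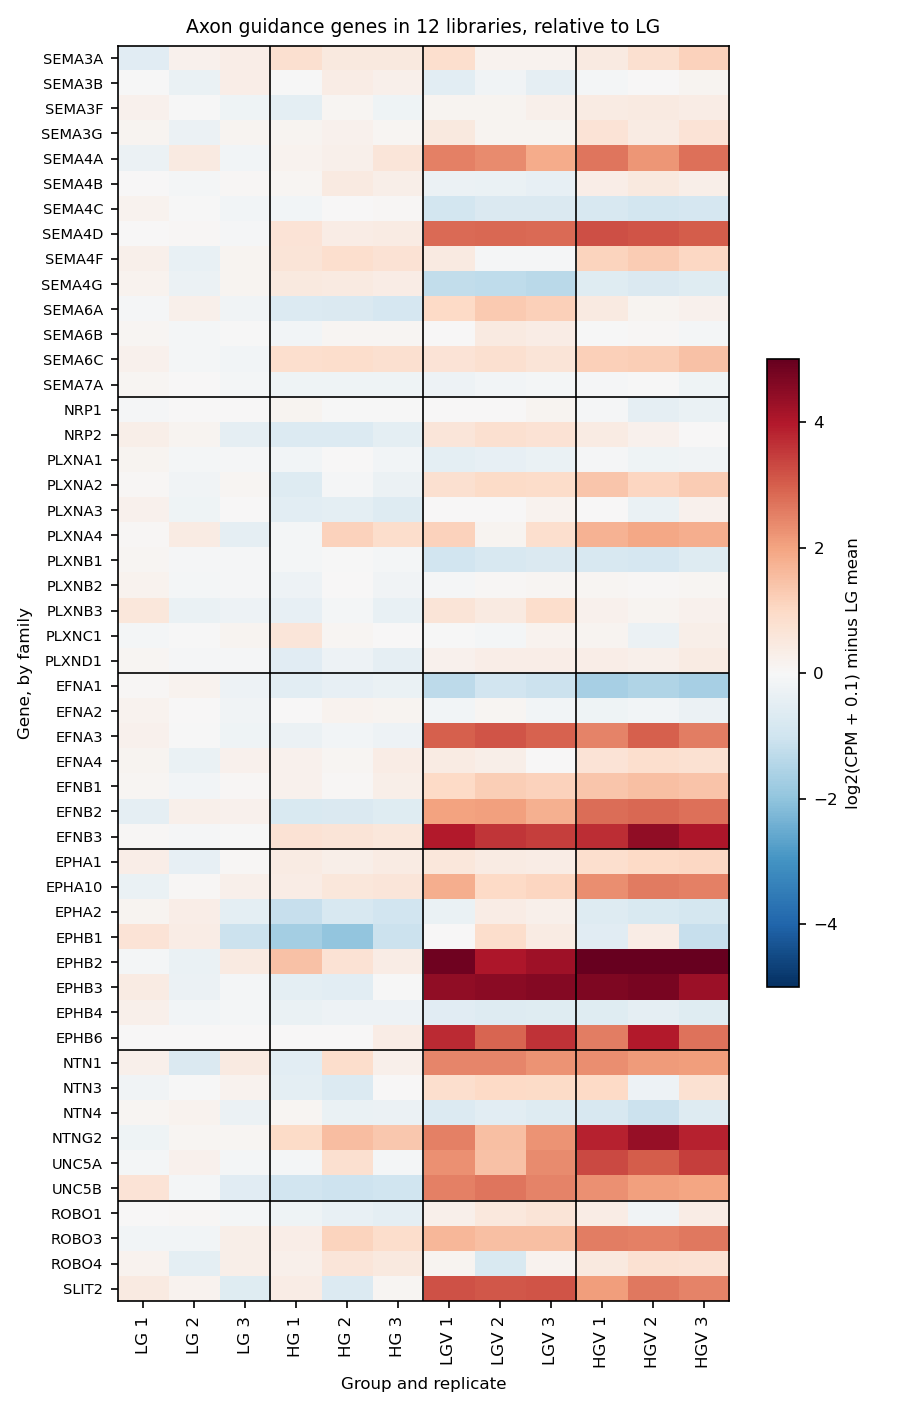
Heat map of the 50 axon guidance genes (rows, ordered by family) in the 12 libraries (columns, by group and replicate). Colour gives log2(CPM + 0.1) minus the mean of the 3 LG libraries and is limited to 5 in either direction, a limit that EPHB2 in HGV passes. EPHB2, EPHB3, EFNB3 and NTNG2 are among the darkest genes in HGV, and EFNA1 and SEMA4G are lower in all 6 VPA libraries than in their untreated controls.

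The effect of VPA in high glucose was asked with HGV against HG. VPA raised 31 of the 50 members and lowered 7, a called share of 76.0%, where 46.1% of the 16188 genes tested were called, 25.8% higher and 20.2% lower (edgeR quasi-likelihood F test, Benjamini-Hochberg FDR of 0.05 or less). The median log2 fold change was 0.58 over members and 0.02 over all genes. HGV and HG libraries did not overlap for 39 members, against 54.6% of all genes. Of the 50 members 9 passed the filter on low counts only through HGV, and such genes had to differ. They were PLXNA4, EPHB1, EPHB2, EPHB3, EPHB6, NTN3, NTNG2, UNC5A and SLIT2, and their FDRs in this comparison are given below as description. The count was therefore repeated for the members with a mean count of at least 10 in LG, a group outside the comparison. There VPA raised 23 and lowered 5 of 42 members, against a background of 43.5% called and 24.2% higher. The deposited table itself holds only genes with a mean of at least 10 reads over all 12 libraries, which favours low genes that VPA raises.

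In low glucose, LGV against LG, VPA raised 22 of 47 tested members and lowered 7, where 41.6% of 15944 genes were called, 21.7% higher and 19.9% lower. The median log2 fold change was 0.38 over members and -0.01 over all genes. Here 5 members passed the filter on low counts only through LGV (SEMA4A, EPHB2, EPHB3, EPHB6 and SLIT2), and their FDRs in this comparison are given as description. With the filter set on HG, which is outside this comparison, 17 of 41 members were higher and 7 lower, against a background of 38.6% called and 19.6% higher. The 2 VPA comparisons share no library. 21 members were called higher in both and 6 lower in both (SEMA4C, SEMA4G, PLXNB1, EFNA1, EPHB4 and NTN4), and none was called in opposite directions. The share of all genes called alike in both is not given here, so this agreement is not read as particular to the members. LGV and LG libraries did not overlap for 30 of 47 members, against 50.5% of genes. With scaling to library size only, the median of all genes moved to 0.15 in HGV against HG and 0.16 in LGV against LG, with 34 members higher and 5 lower in the first and 25 higher and 6 lower in the second, while all genes split into 5182 higher and 2424 lower and into 4500 higher and 1958 lower, in place of 4184 and 3272 and of 3461 and 3177.

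**Figure D2:**
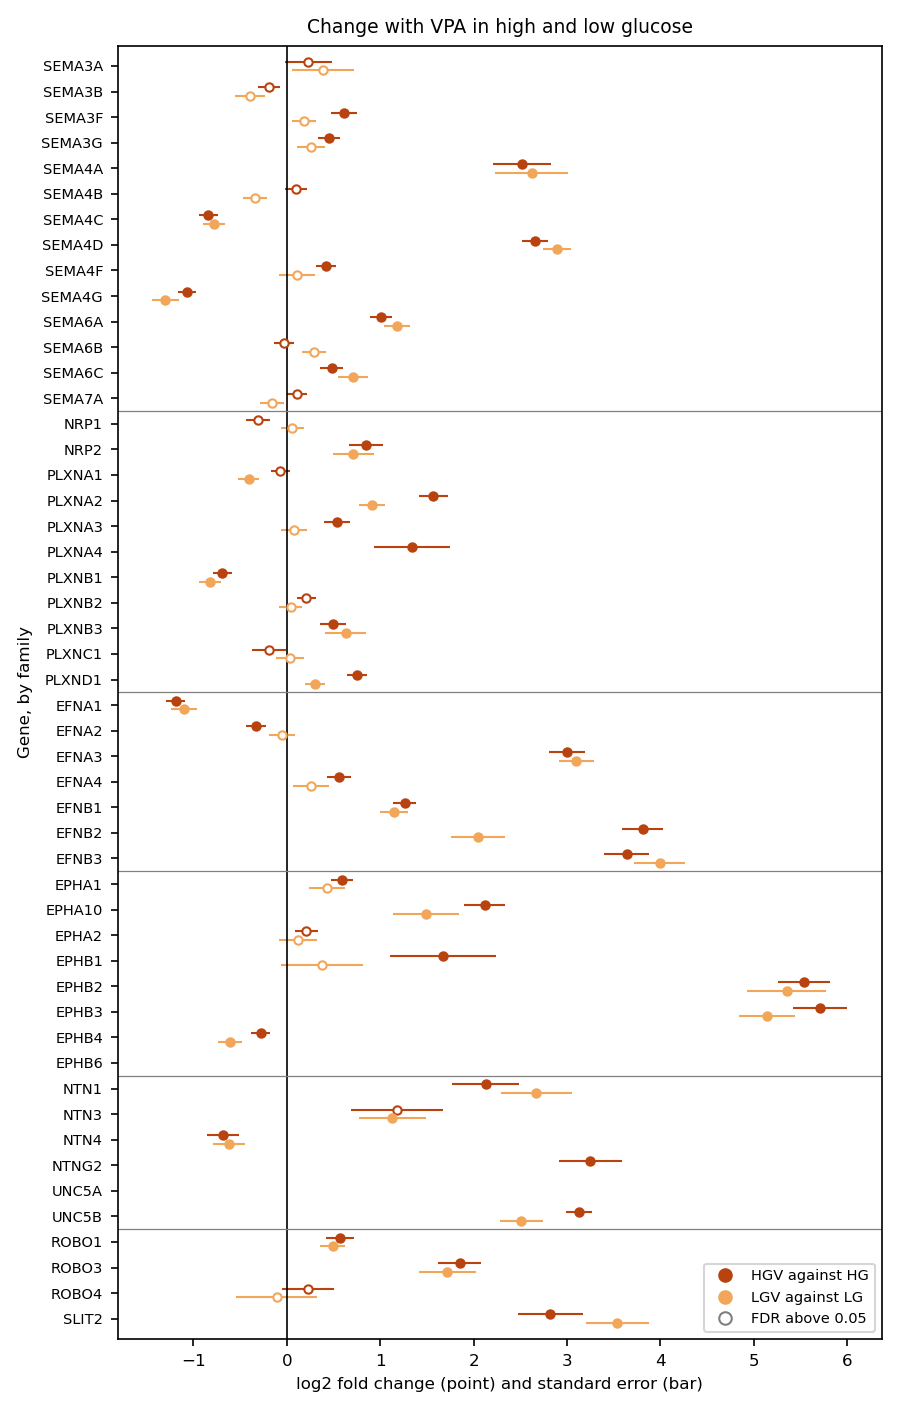
Log2 fold change (points, horizontal axis) with its standard error (bars) for HGV against HG (dark) and LGV against LG (light) in each axon guidance gene, ordered by family. Filled points had an FDR of 0.05 or less, open points did not, and comparisons that were not tested or had at most 3 reads in one group are left out (EPHB6, UNC5A and, in low glucose, PLXNA4 and NTNG2). EPHB2 and EPHB3 lie above 5 in both media, and EFNA1 and SEMA4G lie below -1 in both.

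The largest changes were in the ephrin-B and EphB branch, whose members repel or sort cells at boundaries. All 3 ephrin-B genes rose in both media, and 3 of 5 EphB receptors did (EPHB2, EPHB3 and EPHB6), whereas EPHB4 fell in both. Of all genes 25.8% were higher with VPA in high glucose and 21.7% in low glucose, and the share higher in both is not given here. EPHB2, EPHB3 and EPHB6 passed the filter on low counts only through the VPA group in both media, and EPHB1 did in high glucose. Such genes had to differ to be tested, so their FDRs are given as description. EPHB2, EPHB3 and EPHB6 averaged under 10 reads in LG and in HG, so neither repeated count includes them. EPHB2, a receptor tyrosine kinase (chromosome 1, 23037332-23247993, plus strand, GRCh37), was at 0.0748, 0.0499 and 0.153 CPM in LG and 0.412, 0.209 and 0.140 CPM in HG. It reached 5.37, 3.02 and 3.47 CPM in LGV and 10.4, 13.98 and 10.8 CPM in HGV. All treated libraries were above all untreated ones, and all HGV libraries were above all LGV libraries. The log2 fold change was 5.54 ± 0.28 (SE) in HGV against HG (FDR = 3.50e-08) and 5.35 ± 0.42 in LGV against LG (FDR = 2.47e-07), the latter 5.99 without LG replicate 3. EPHB2 was also higher in HGV than in LGV by 1.55 ± 0.21 (FDR = 2.26e-05).

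EPHB3, a closely related receptor (chromosome 3, 184279573-184300196, plus strand), was at 0.262, 0.125 and 0.153 CPM in LG and 0.0951, 0.0897 and 0.168 CPM in HG. With VPA it was at 5.82, 6.11 and 6.46 CPM in LGV and 6.78, 7.18 and 5.23 CPM in HGV. Unlike the EPHB2 values, those of EPHB3 overlapped between LGV and HGV (log2 difference 0.05 ± 0.18, FDR = 0.862). The VPA change was 5.71 ± 0.29 in high glucose (FDR = 3.50e-08) and 5.14 ± 0.30 in low glucose (FDR = 2.56e-08). EPHB6, a family member without kinase activity, had no read in the LG libraries and 1 read in HG, in replicate 3. It was at 1.23, 0.650 and 1.12 CPM in LGV, at least 35.8-fold higher than the floor of 3 reads over the LG group, and at 0.491, 1.47 and 0.559 CPM in HGV, where the ratio to HG was 89.9 with an exact 95% counting interval of 15.8 to 3586. Both contrasts of EPHB6 were called (FDR = 0.000129 and 9.90e-06).

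EPHB4, the receptor that marks venous endothelium and the main EphB of these cells, went the other way. It was at 306, 232 and 243 CPM in LG and 175, 165 and 169 CPM in LGV, and at 208, 217 and 219 CPM in HG and 169.6, 191 and 171 CPM in HGV. The treated libraries were below their controls in both media, by more in low glucose (-0.61 ± 0.13, FDR = 0.00146) than in high glucose (-0.28 ± 0.10, FDR = 0.0322), a difference that did not pass the interaction test (FDR = 0.439). The high glucose call was lost without HG replicate 2 or 3 or HGV replicate 1 or 3, with the filter on LG, with library size only or upper quartile factors and in 1 fit of the 12 libraries. EPHB4 fell from 99.8% of the summed EphB level per kb in HG to 91.4% in HGV, so it still made up most of it. EPHB1 was at 1.08, 0.873 and 0.255 CPM in LG, 0.127, 0.0897 and 0.252 CPM in HG, 0.660, 1.27 and 0.881 CPM in LGV and 0.399, 0.856 and 0.235 CPM in HGV. Its HG and HGV libraries overlapped although it was called (1.67 ± 0.57, FDR = 0.0293), a call lost without HG replicate 1 or 2.

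EFNB2, the ligand of EPHB4 that marks arterial endothelium (chromosome 13, 107142093-107188010, minus strand), was at 0.411, 0.724 and 0.715 CPM in LG and 0.317, 0.329 and 0.364 CPM in HG. It rose to 2.76, 2.79 and 2.27 CPM in LGV and 4.69, 5.06 and 4.59 CPM in HGV. HG libraries were the lowest and HGV libraries the highest of the 4 groups, with no overlap between any groups. The VPA change was 3.81 ± 0.22 in high glucose (FDR = 8.03e-08) and 2.05 ± 0.29 in low glucose (FDR = 5.40e-05). Exons of a long noncoding RNA on the opposite strand cover 36.4% of EFNB2 exon bases, and whether counting used the strand is not stated.

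EFNB3, a further ephrin-B (chromosome 17, 7608520-7614690, plus strand), was at 0.411, 0.374 and 0.383 CPM in LG and 0.697, 0.658 and 0.616 CPM in HG. It was at 7.53, 5.68 and 5.26 CPM in LGV and 6.22, 10.4 and 8.03 CPM in HGV. The treated groups overlapped each other and lay far above both untreated groups, with changes of 3.64 ± 0.24 (FDR = 1.97e-07) and 3.99 ± 0.27 (FDR = 7.18e-08). EFNB1, the most abundant ephrin-B, was at 8.97, 7.66 and 8.88 CPM in LG, 9.76, 8.79 and 10.4 CPM in HG, 17.1, 19.9 and 19.2 CPM in LGV and 22.3, 24.2 and 22.9 CPM in HGV. All treated libraries exceeded all untreated ones, and EFNB1 rose by 1.26 ± 0.12 (FDR = 4.43e-06) and 1.15 ± 0.15 (FDR = 3.04e-05). The summed ephrin-B level went from 2.82 ± 0.208 to 8.099 ± 0.225 CPM per kb in low glucose and from 3.198 ± 0.249 to 10.5 ± 0.986 CPM per kb in high glucose.

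**Figure D3:**
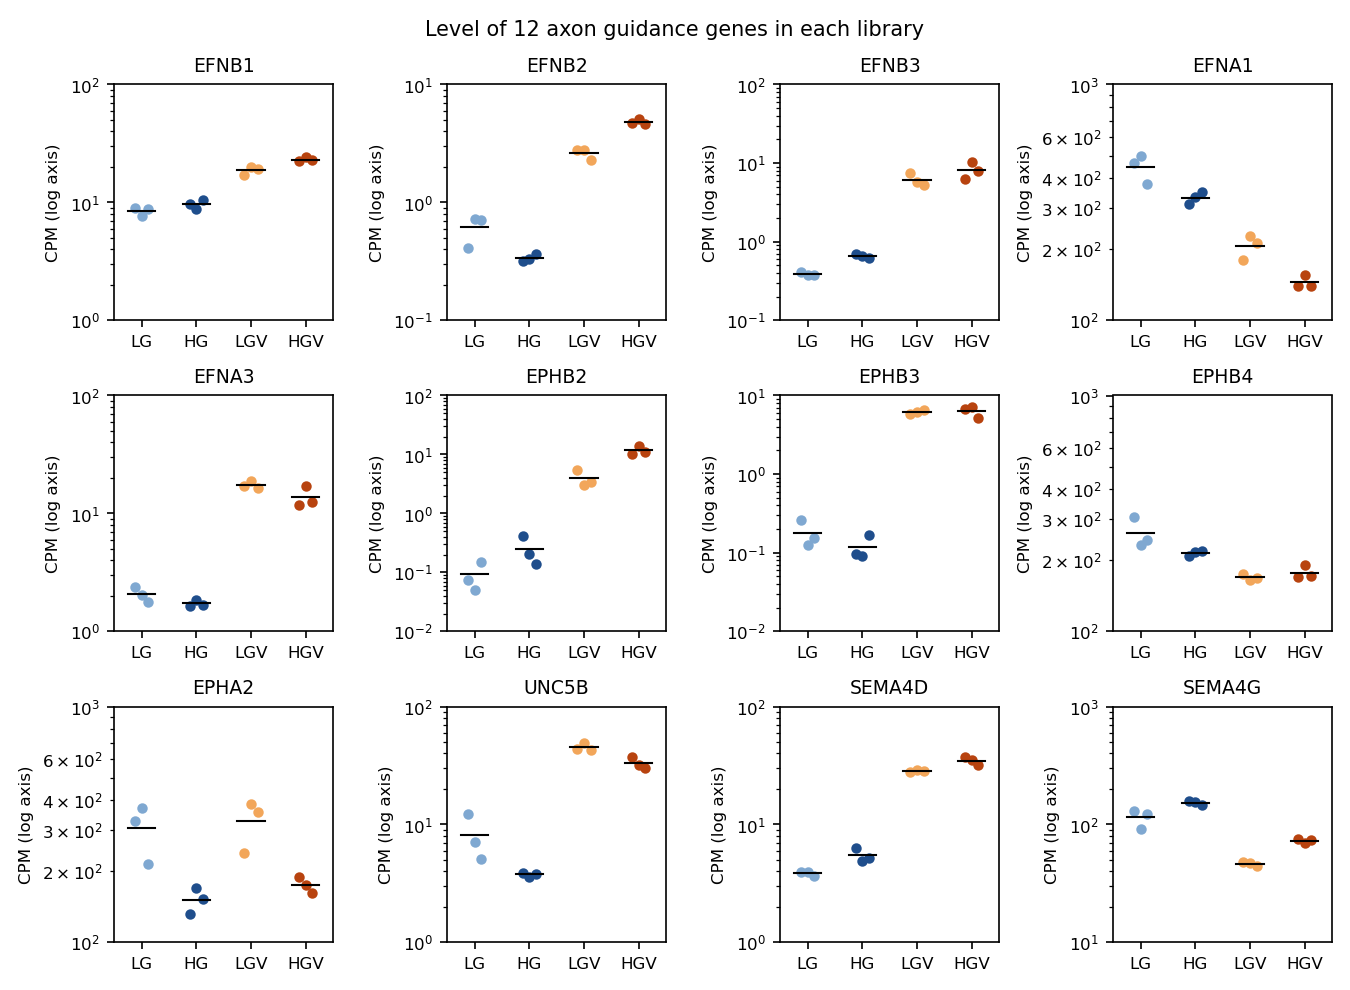
Level in CPM (vertical log axis) of 12 axon guidance genes in each library (points) of LG, HG, LGV and HGV, with the group mean (line). The ephrin-B genes, EPHB2, EPHB3, EFNA3, UNC5B and SEMA4D are higher in every VPA library than in any untreated one, EFNA1, EPHB4 and SEMA4G are lower, and EPHA2 separates high from low glucose instead.

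The ephrin-A genes did not move together. EFNA1 (chromosome 1, 155100352-155107375, plus strand) was at 467, 499.7 and 377 CPM in LG and 311, 332 and 349 CPM in HG. It fell to 180.2, 227 and 213 CPM in LGV and 139.8, 155 and 139 CPM in HGV. No groups overlapped, with HGV the lowest, and the VPA change was -1.19 ± 0.10 in high glucose (FDR = 1.46e-06) and -1.10 ± 0.14 in low glucose (FDR = 1.84e-05). EFNA3 (155051313-155060014), which lies on the same strand of chromosome 1, was at 2.39, 2.02 and 1.76 CPM in LG, 1.65, 1.85 and 1.68 CPM in HG, 16.98, 18.9 and 16.3 CPM in LGV and 11.8, 17.05 and 12.6 CPM in HGV. It rose by 3.00 ± 0.19 (FDR = 1.22e-07) and 3.10 ± 0.19 (FDR = 3.04e-08). EFNA4 (155036213-155042029), its neighbour on the other side, rose by 0.56 ± 0.13 in high glucose (FDR = 0.00388) and was not called in low glucose (0.26 ± 0.19, FDR = 0.304). A readthrough transcript of EFNA4 and EFNA3 covers 43.9% of EFNA3 and 15.0% of EFNA4 exon bases, so part of their reads cannot be assigned with certainty.

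The summed ephrin level per kb fell from 175 ± 9.91 to 104 ± 7.48 CPM per kb in high glucose and from 227 ± 29.1 to 129 ± 11.9 CPM per kb in low glucose, and EFNA1 fell from 87.5% to 64.5% and from 91.1% to 73.7% of it. Fewer cells of a kind and less RNA per cell cannot be told apart in these bulk libraries. Of the EphA receptors, EPHA10, a kinase-dead member, was at 0.337, 0.474 and 0.562 CPM in LG, 0.602, 0.718 and 0.728 CPM in HG, 1.83, 1.01 and 1.07 CPM in LGV and 2.64, 3.26 and 3.06 CPM in HGV. It rose by 2.12 ± 0.22 (FDR = 8.55e-06) and 1.49 ± 0.35 (FDR = 0.00365), with treated above untreated libraries throughout. EPHA1 rose in high glucose (0.59 ± 0.12, FDR = 0.00129) and was not called in low glucose (0.43 ± 0.19, FDR = 0.0753), with no interaction called (FDR = 0.841). EPHA2 was at 0.21 ± 0.12 (FDR = 0.158) and 0.12 ± 0.20 (FDR = 0.675) and passed neither test.

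Semaphorins moved in both directions, with 7 of 14 higher and 2 lower in HGV against HG, and 4 higher and 2 lower in LGV against LG. Of all genes 25.8% were higher and 20.2% lower in the first and 21.7% and 19.9% in the second, so the 42.9% of semaphorins called in low glucose was near the 41.6% of all genes. SEMA4D, an immune and neuronal semaphorin that binds PLXNB1 (chromosome 9, 91975702-92113045, minus strand), was at 3.93, 3.97 and 3.65 CPM in LG and 6.28, 4.93 and 5.18 CPM in HG. It was at 27.6, 28.8 and 28.2 CPM in LGV and 36.98, 35.2 and 31.7 CPM in HGV. The treated groups lay well above the untreated ones, by 2.66 ± 0.14 (FDR = 3.50e-08) and 2.89 ± 0.15 (FDR = 8.51e-09). SEMA4A, a relative with roles in immune cells, was at 0.150, 0.324 and 0.179 CPM in LG, 0.254, 0.269 and 0.364 CPM in HG, 1.65, 1.49 and 1.01 CPM in LGV and 1.901, 1.33 and 1.97 CPM in HGV. It rose without overlap of treated and untreated libraries, by 2.52 ± 0.31 (FDR = 2.97e-05) and 2.62 ± 0.39 (FDR = 8.12e-05). In low glucose SEMA4A passed the filter on low counts only through LGV, so the second FDR is given as description. SEMA6A, which signals to A-type plexins, rose by 1.01 ± 0.12 (FDR = 2.25e-05) and 1.18 ± 0.14 (FDR = 9.27e-06).

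SEMA4G was at 129.7, 91.8 and 124 CPM in LG and 48.05, 46.99 and 44.3 CPM in LGV, and at 159, 154 and 146 CPM in HG and 74.9, 69.7 and 74.4 CPM in HGV. It fell in both media, with log2 fold changes of -1.07 ± 0.10 (FDR = 2.33e-06) and -1.30 ± 0.14 (FDR = 4.05e-06), and treated and untreated libraries did not overlap. Exons of MRPL43, on the opposite strand, cover 22.9% of its exon bases. SEMA4C, a PLXNB2 ligand, was at 116, 104 and 93.6 CPM in LG, 94.4, 105 and 108 CPM in HG, 54.7, 62.9 and 63.4 CPM in LGV and 59.1, 55.2 and 57.5 CPM in HGV. It fell too, with -0.84 ± 0.10 (FDR = 2.31e-05) and -0.78 ± 0.12 (FDR = 0.000120). SEMA6B, the most abundant, was at 226, 196 and 207 CPM in LG, 188, 224 and 223 CPM in HG, 210.5, 283 and 269 CPM in LGV and 206, 219 and 197 CPM in HGV. Its groups overlapped, and it was called in neither medium (-0.03 ± 0.11 and 0.29 ± 0.13, FDR = 0.827 and 0.0931). Of the 4 secreted class 3 genes, SEMA3F and SEMA3G rose in high glucose (0.61 ± 0.14 and 0.45 ± 0.12, FDR = 0.00313 and 0.00672), and none was called in low glucose. The summed semaphorin level was 143 ± 9.31 in HG and 129.9 ± 1.42 in HGV, and 132 ± 11.7 in LG and 125 ± 10.2 CPM per kb in LGV, a difference smaller than the SD of LG in low glucose.

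Among their receptors 6 of 11 plexins and neuropilins rose and 1 fell in HGV against HG, and 4 rose and 2 fell among 10 in LGV against LG, beside 25.8% and 20.2% of all genes in the first and 21.7% and 19.9% in the second. PLXNA2, a receptor for class 3 and class 6 semaphorins, was at 13.5, 11.4 and 13.96 CPM in LG, 8.15, 12.3 and 10.4 CPM in HG, 22.6, 25.04 and 24.8 CPM in LGV and 33.8, 27.1 and 30.9 CPM in HGV. All treated libraries exceeded all untreated ones, and the change was 1.57 ± 0.16 (FDR = 5.72e-06) in high and 0.91 ± 0.14 (FDR = 0.000125) in low glucose. PLXNB1, the receptor of SEMA4D, moved against its ligand. It was at 273, 251 and 249.98 CPM in LG and 133, 147 and 154 CPM in LGV, and at 239.6, 252 and 244 CPM in HG and 149, 142 and 163 CPM in HGV. It fell with VPA, with log2 fold changes of -0.69 ± 0.10 (FDR = 9.66e-05) and -0.82 ± 0.12 (FDR = 5.25e-05), with no overlap of treated and untreated libraries.

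PLXNB2, the most abundant plexin, was at 258, 213 and 218 CPM in LG, 192, 235 and 204 CPM in HG, 218, 237 and 247 CPM in LGV and 247, 237 and 245 CPM in HGV. Its HGV libraries lay just above HG, its LGV and LG libraries overlapped, and neither change was called (0.21 ± 0.10, FDR = 0.123, and 0.04 ± 0.12, FDR = 0.827). PLXND1, a receptor for semaphorins in blood vessels, was at 155, 138 and 139 CPM in LG, 97.00, 122 and 104 CPM in HG, 168, 181 and 179.9 CPM in LGV and 182, 171 and 191 CPM in HGV. Its HG libraries were the lowest, and it rose by 0.75 ± 0.11 (FDR = 0.000139) in high glucose and 0.30 ± 0.11 (FDR = 0.0415) in low glucose, the latter lost without LG replicate 2 or 3 or LGV replicate 2 or 3. NRP2, a co-receptor for class 3 semaphorins, was at 4.45, 3.92 and 2.63 CPM in LG, 2.22, 2.18 and 2.55 CPM in HG, 5.49, 6.37 and 5.898 CPM in LGV and 4.75, 4.21 and 3.59 CPM in HGV. It rose by 0.85 ± 0.18 (FDR = 0.00230) and 0.71 ± 0.22 (FDR = 0.0172), the second lost without LG replicate 3 or LGV replicate 2 or 3. NRP1, its paralog, was not called (-0.31 ± 0.13, FDR = 0.0651, and 0.06 ± 0.12, FDR = 0.706). PLXNA4 was at 0.112, 0.175 and 0.0511 CPM in LG, 0.0951, 0.359 and 0.280 CPM in HG, 0.360, 0.130 and 0.267 CPM in LGV and 0.583, 0.690 and 0.618 CPM in HGV. It was close to the floor, and its call (1.34 ± 0.41, FDR = 0.0185) was lost without HG replicate 1. PLXNA4 passed the filter on low counts in this comparison only through HGV, so this FDR is given as description. PLXNB3 was at 13.3, 7.09 and 7.43 CPM in LG, 6.66, 8.31 and 6.78 CPM in HG, 14.1, 12.1 and 16.2 CPM in LGV and 10.4, 9.84 and 10.4 CPM in HGV. It was called in both media (0.49 ± 0.14, FDR = 0.0125, and 0.63 ± 0.22, FDR = 0.0337), although LGV and LG overlapped and its exons share 20.4% of their bases with SRPK3 on the same strand. That low glucose call was lost without LG replicate 2 or 3 or LGV replicate 1 or 3, and the high glucose call without HG replicate 1 or 3.

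The netrin family changed from mainly ligand to mainly receptor. UNC5B (chromosome 10, 72972327-73062621, plus strand) was at 12.2, 7.11 and 5.05 CPM in LG and 3.899, 3.62 and 3.78 CPM in HG. With VPA it was at 43.7, 49.2 and 42.6 CPM in LGV and 37.3, 31.9 and 29.97 CPM in HGV. The lowest treated library was above the highest untreated one, and the change was 3.13 ± 0.14 (FDR = 1.51e-08) in high and 2.51 ± 0.23 (FDR = 1.25e-06) in low glucose. NTN4 was at 15.2, 11.1 and 11.6 CPM in HG and 8.003, 6.66 and 8.97 CPM in HGV, and at 15.3, 15.9 and 11.5 CPM in LG and 8.85, 9.71 and 8.99 CPM in LGV. The log2 fold changes were -0.68 ± 0.17 (FDR = 0.00472) and -0.62 ± 0.17 (FDR = 0.00800), and treated libraries lay below their controls. Per kb, UNC5B went from 15.3% to 62.8% of the netrin family in high glucose and from 24.9% to 69.7% in low glucose, while NTN4 went from 79.1% to 23.5% and from 70.8% to 22.2%.

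The rarer members of this family were under 1 CPM in every library without VPA. NTN1, the founding netrin, was at 0.337, 0.125 and 0.408 CPM in LG, 0.159, 0.568 and 0.336 CPM in HG, 1.89, 1.92 and 1.65 CPM in LGV and 1.75, 1.498 and 1.47 CPM in HGV. Treated libraries lay above untreated ones, by 2.13 ± 0.36 (FDR = 0.000357) and 2.67 ± 0.38 (FDR = 5.30e-05). NTNG2, a membrane-anchored netrin, was at 0.127, 0.239 and 0.196 CPM in HG and 1.56, 2.31 and 1.56 CPM in HGV, a rise of 3.25 ± 0.34 (FDR = 8.93e-06). In low glucose, at 0, 0.0250 and 0.0255 CPM in LG and 0.570, 0.227 and 0.454 CPM in LGV, it was not tested, with a ratio of LGV to LG of 22.4 and a 95% counting interval of 5.84 to 191. UNC5A had 3 reads in HG, all in replicate 2, and was at 0.951, 0.785 and 1.09 CPM in HGV, a ratio of 31.2 with an interval of 10.4 to 154 (FDR = 5.92e-05). In high glucose NTNG2 and UNC5A passed the filter on low counts only through HGV, so these FDRs are given as description. In low glucose UNC5A had 1 read in LG and was at 0.420, 0.195 and 0.454 CPM in LGV, a ratio of 38.6 (6.51 to 1565), and was not tested. NTN3 was at 0.262, 0.299 and 0.357 CPM in LG, 0.190, 0.150 and 0.308 CPM in HG, 0.630, 0.714 and 0.694 CPM in LGV and 0.705, 0.238 and 0.588 CPM in HGV. It was called in low glucose alone (1.13 ± 0.36, FDR = 0.0189, against 1.18 ± 0.49, FDR = 0.0662), with no interaction called (FDR = 0.986), and the call was lost without LG replicate 1 or LGV replicate 2 or 3.

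SLIT2, a repellent ligand for Robos (chromosome 4, 20253528-20622184, plus strand), was at 0.374, 0.299 and 0.128 CPM in LG and 0.349, 0.120 and 0.280 CPM in HG. It was at 3.09, 2.92 and 3.02 CPM in LGV and 1.38, 2.07 and 1.85 CPM in HGV, above every untreated library in both media. The rise was 2.82 ± 0.35 (FDR = 3.72e-05) and 3.54 ± 0.34 (FDR = 1.62e-06). SLIT2 averaged 8.33 reads in HG and 9.0 in LG. It passed the filter on low counts only through the VPA group in both media, so these FDRs are given as description. ROBO3, a divergent Robo, was at 0.449, 0.449 and 0.638 CPM in LG, 0.666, 1.23 and 1.01 CPM in HG, 1.83, 1.62 and 1.63 CPM in LGV and 3.495, 3.35 and 3.68 CPM in HGV. It rose by 1.85 ± 0.23 (FDR = 3.83e-05) and 1.72 ± 0.30 (FDR = 0.000321). ROBO4, the endothelial Robo that lies beside it on chromosome 11, was not called (0.23 ± 0.28, FDR = 0.539, and -0.11 ± 0.43, FDR = 0.859). ROBO1, the main receptor here, was at 178, 182 and 164 CPM in LG, 149.97, 135 and 123 CPM in HG, 208, 250.3 and 273 CPM in LGV and 228, 153 and 227 CPM in HGV. It rose by 0.57 ± 0.15 (FDR = 0.00724) and 0.49 ± 0.13 (FDR = 0.00575) and still made up 95.8% of the Slit and Robo level in HGV.

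The VPA change was also set against the level in untreated cells of the other medium, a group outside the comparison. Only genes that averaged 10 reads or more in that group were used here, 42 members in high and 41 in low glucose, so that none entered through the libraries compared, and the fits were those filtered in the same way. By their mean in LG, 6 of 9 members under 1 CPM rose in HGV against HG and 0 fell (edgeR), where 25.9% of 2518 genes at this level rose. Of 8 members from 1 to under 10 CPM all 8 rose, where 30.6% of genes did. Of 25 members at 10 CPM or more, 9 rose and 5 fell, where 20.7% of genes rose and 26.2% fell. With HG levels for LGV against LG, 6 of 7 members under 1 CPM rose, 6 of 8 from 1 to under 10 CPM rose, and 5 of 26 at 10 CPM or more rose while 7 fell, against 22.2%, 25.9% and 16.1% of genes rising. Spearman's rho between level and change was -0.69 over the 42 members and -0.24 over all genes in high glucose, and -0.73 over 41 members and -0.28 over all genes in low glucose. These are descriptions across genes, which share the same libraries and are not independent, and the table's own minimum mean over the 12 libraries still applies.

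**Figure D4:**
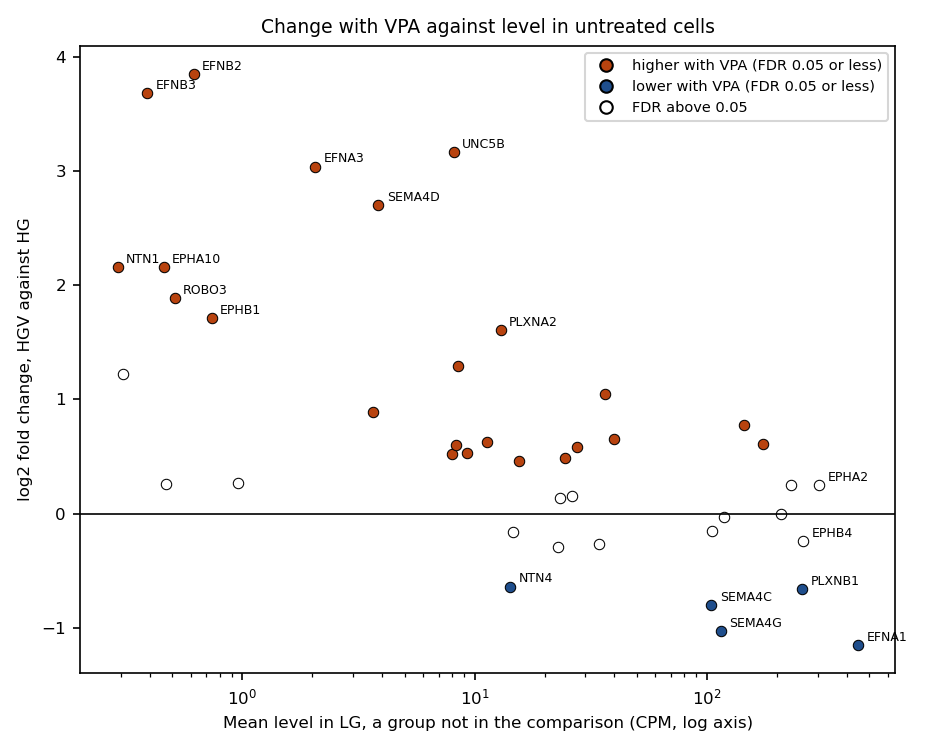
Log2 fold change in HGV against HG (vertical axis) against the mean level in LG in CPM (horizontal log axis) for the 42 axon guidance genes that averaged 10 reads or more in LG, each point a gene coloured by its call. The 5 members called lower, EFNA1 among them, all stand above 10 CPM, and no member under 10 CPM in LG was called lower.

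The effect of glucose without VPA was asked with HG against LG. It called 11 of 41 tested members (26.8%), where 24.7% of 15452 genes were called, so the share was near the background. SEMA4F, SEMA4G and SEMA6C were higher in HG, and SEMA6A, PLXNA3, PLXND1, EFNA1, EPHA2, EPHB1, UNC5B and ROBO1 were lower. The lower genes included all 6 receptors called, of 19 tested. Among these, EPHB1 passed the filter on low counts only through LG, so it had to come out lower. The calls of PLXNA3, PLXND1 and ROBO1 were lost with library size only. Of all genes 12.0% were called higher and 12.7% lower, and groups did not overlap for 21 members, against 41.2% of genes. The median log2 fold change was -0.01 over members and 0.01 over all genes. With library size only or upper quartile factors, which moved the median of all genes to 0.11 and 0.10, 5 members were higher and 5 lower. Without LG replicate 1 only 5 members were called (3 higher and 2 lower) and without HG replicate 3 only 7 (3 and 4), while calls over all genes fell to 1933 and 2076.

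EPHA2, which has roles in epithelial growth, had the smallest FDR of the receptors in HG against LG. It was at 327, 372 and 214 CPM in LG and 132, 169.6 and 153 CPM in HG, and at 239, 387 and 356 CPM in LGV and 190.1, 175 and 162 CPM in HGV. High glucose libraries lay below low glucose libraries with and without VPA, with log2 fold changes of -0.98 ± 0.17 (FDR = 0.000355) in HG against LG and of -0.92 ± 0.16 (FDR = 0.000197) in HGV against LGV. The summed EphA level was 76.01 ± 19.4 CPM per kb in LG, 39.7 ± 4.49 in HG, 82.4 ± 18.6 in LGV and 47.3 ± 3.09 in HGV, nearly all of it EPHA2. EFNA1, its ligand, was lower in high glucose too, with a log2 fold change of -0.41 ± 0.13 (FDR = 0.0244) without VPA, a call lost without any one HG replicate or without LG replicate 1 or 2, and of -0.53 ± 0.13 (FDR = 0.00261) with VPA.

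SEMA6A was at 34.6, 43.4 and 31.7 CPM in LG and 22.7, 21.95 and 20.3 CPM in HG, and at 73.2, 90.3 and 83.2 CPM in LGV and 49.5, 39.7 and 41.6 CPM in HGV. It was lower in high glucose with and without VPA, with log2 fold changes of -0.74 ± 0.15 (FDR = 0.00177) in HG against LG and -0.93 ± 0.13 (FDR = 2.80e-05) in HGV against LGV. UNC5B was lower in HG (-1.07 ± 0.25, FDR = 0.00479) and in HGV (-0.47 ± 0.13, FDR = 0.00664), and the first call was lost without LG replicate 1. SEMA6C was at 9.199, 7.46 and 7.199 CPM in LG, 14.1, 14.4 and 13.7 CPM in HG, 12.6, 13.9 and 12.2 CPM in LGV and 18.2, 18.9 and 21.8 CPM in HGV. SEMA6C and SEMA4F were higher in HG, by 0.85 ± 0.17 (FDR = 0.00130) and 0.75 ± 0.17 (FDR = 0.00364). SEMA4F was at 18.3, 11.8 and 16.6 CPM in LG, 24.2, 27.4 and 25.2 CPM in HG, 20.8, 14.5 and 14.6 CPM in LGV and 33.6, 37.4 and 31.7 CPM in HGV, and high glucose libraries exceeded low glucose libraries with and without VPA. EPHB1, with the values given above, was lower in HG (-2.13 ± 0.53, FDR = 0.00676), a call lost without HG replicate 1 or LG replicate 1. EPHB1 averaged 5.33 reads in HG and 24.7 in LG, so it passed the filter on low counts only through LG. Such a gene had to differ to be tested, and its FDR is given as description. PLXNA3 was at 31.7, 23.4 and 27.4 CPM in LG, 18.8, 19.2 and 17.4 CPM in HG, 27.98, 27.4 and 31.2 CPM in LGV and 27.3, 21.9 and 31.4 CPM in HGV. Smaller falls were called for PLXNA3 (-0.55 ± 0.15, FDR = 0.0131), PLXND1 (-0.39 ± 0.13, FDR = 0.0306) and ROBO1 (-0.34 ± 0.12, FDR = 0.0450). Each of these 3 calls was lost without LG replicate 1, without HG replicate 3 and with library size only. PLXND1 was also lost without HG replicate 1 and ROBO1 without HG replicate 2 or LG replicate 2, and both were lost with upper quartile factors. NTNG2, not tested here, had 2 reads in LG and 19 in HG, a ratio of 10.0 with a 95% counting interval of 2.41 to 88.5.

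In VPA-treated cells, HGV against LGV, 15 of 50 members were higher and 8 lower in high glucose, a share of 46.0%, where 40.7% of 16208 genes were called, 21.2% higher and 19.5% lower. Libraries did not overlap for 28 members, against 51.4% of genes. The count fell to 15 (10 higher and 5 lower) without LGV replicate 3, and the split was 19 higher and 5 lower with library size only and 20 and 6 with upper quartile factors. These 2 scalings moved the median log2 fold change of all genes from 0.01 to 0.095 and 0.101. They moved that of members from 0.052 to 0.14 and 0.145. The 2 glucose comparisons share no library. 3 members were higher in both (SEMA4F, SEMA4G and SEMA6C), 4 were lower in both (SEMA6A, EFNA1, EPHA2 and UNC5B), and none was called in opposite directions. For glucose too, the share of all genes called alike in both is not given here. The SEMA4G call in HG against LG was lost without HG replicate 1 or 2 or LG replicate 2, and the UNC5B call in HGV against LGV in 1 fit of the 12 libraries.

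Several genes that VPA had raised from untreated group means under 1 CPM were among those that differed between HGV and LGV. NTNG2 was at 0.570, 0.227 and 0.454 CPM in LGV and 1.56, 2.31 and 1.56 CPM in HGV (2.08 ± 0.35, FDR = 0.000151). UNC5A was higher in HGV by 1.35 ± 0.38 (FDR = 0.00888), EPHA10 by 1.18 ± 0.26 (FDR = 0.00169), ROBO3 by 1.03 ± 0.22 (FDR = 0.00111) and EFNB2 by 0.86 ± 0.20 (FDR = 0.00216). The UNC5A call was lost without LGV replicate 2. SLIT2 differed in the other direction, lower in HGV (-0.78 ± 0.23, FDR = 0.0116), a call lost without HGV replicate 1. PLXNB3 (-0.49 ± 0.15, FDR = 0.0142) and NRP2 (-0.52 ± 0.19, FDR = 0.0323) were lower as well and lost their calls without LGV replicate 3, NRP2 also without LGV replicate 2 or HGV replicate 3. PLXNA4 was higher by 1.28 ± 0.42 (FDR = 0.0217), lost without LGV replicate 2 or 3, and SEMA4B by 0.71 ± 0.12 (FDR = 0.000248). PLXNA4 averaged 8.67 reads in LGV and 23.0 in HGV. It passed the filter on low counts only through HGV, so its FDR is given as description.

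**Figure D5:**
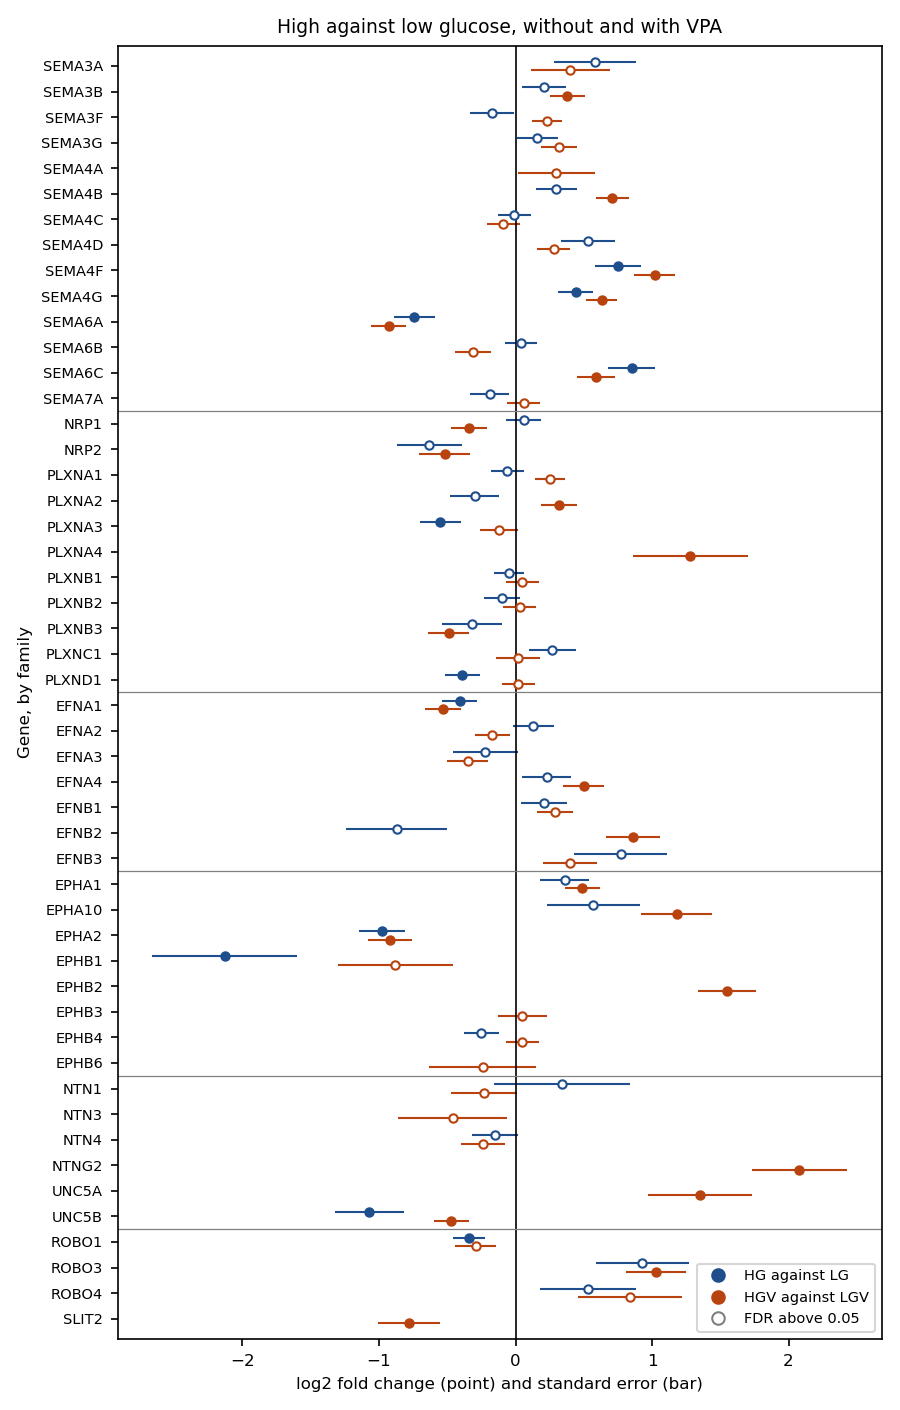
Log2 fold change (points, horizontal axis) with its standard error (bars) for HG against LG (blue) and HGV against LGV (red) in each axon guidance gene, ordered by family. Filled points had an FDR of 0.05 or less, open points did not, and comparisons that were not tested are left out. EPHA2, SEMA6A, EFNA1 and UNC5B are filled and below 0 in both comparisons, and SEMA4F, SEMA4G and SEMA6C are filled and above 0 in both.

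Whether the VPA response differed between media was tested as an interaction over the 12 libraries. By edgeR 0 of 50 members were called, where 7 of 16389 genes (0.0427%) were, 0.0244% higher and 0.0183% lower, while 9 members (18.0%) and 11.3% of genes had an unadjusted p under 0.05, and DESeq2 called 1 member, EFNB2, among 161 genes. The EFNB2 response was larger in high glucose by 1.77 ± 0.37 on the log2 scale (edgeR FDR = 0.0627, between 0.0121 and 0.201 over the alternatives, the lowest by DESeq2). PLXNA2 had an interaction of 0.67 ± 0.21 (FDR = 0.210), UNC5B of 0.64 ± 0.30 (FDR = 0.419) and PLXND1 of 0.46 ± 0.16 (FDR = 0.255). None of these passed the threshold in edgeR.

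Other guidance genes were read as 3 lists, beside all genes, of which 25.8% rose and 20.2% fell in HGV against HG and 21.7% rose and 19.9% fell in LGV against LG. Of 22 further guidance ligands and receptors in the table, 14 rose and 1 fell in HGV against HG, and 12 rose and 1 fell of 21 in LGV against LG. LINGO1, a Nogo receptor partner, rose by 5.20 ± 0.39 (FDR = 5.48e-07) in high and 5.41 ± 0.50 (FDR = 1.07e-06) in low glucose, and VANGL2, a planar polarity gene, rose by 4.11 ± 0.21 (FDR = 3.50e-08) and 4.84 ± 0.27 (FDR = 1.83e-08). RGMA, a repulsive guidance molecule, rose by 4.05 ± 0.44 (FDR = 1.21e-05) in high glucose and was not tested in low glucose. In HG, LINGO1 stood at 0.0504 and RGMA at 0.0678 CPM. In each medium 2 tested genes of this list passed the filter on low counts only through one group, and such genes had to differ. LINGO1 was among them in both media and RGMA in high glucose, so these FDRs are given as description. Of 62 intracellular effectors, which carry the signal to the cytoskeleton, 29 rose and 7 fell in high glucose, and 23 rose and 9 fell of 60 in low glucose. DPYSL5, a collapsin response mediator, rose by 6.91 ± 0.21 (FDR = 2.01e-09) and 7.51 ± 0.44 (FDR = 2.56e-08), from 0.187 CPM in HG to 23.1 CPM in HGV. Of the effectors 4 passed only through one group in each medium. DPYSL5 was among them in both media, so its FDRs are given as description. The filter on an outside group was not applied to these lists. Of 10 genes for receptor shedding and processing, 2 rose and 3 fell in high glucose and 3 rose and 2 fell in low glucose. APH1B, a gamma-secretase subunit, rose by 1.14 ± 0.14 (FDR = 3.64e-05) in high and 1.29 ± 0.26 (FDR = 0.00101) in low glucose, and FURIN, which cleaves class 3 semaphorins, was lower in both media (-0.67 ± 0.13, FDR = 0.000856, and -0.99 ± 0.20, FDR = 0.00121). In HG against LG, 1 of 20, 14 of 58 and 4 of 10 genes of these lists were called, against 24.7% of all genes, and in HGV against LGV 10 of 22, 30 of 62 and 5 of 10, against 40.7%. The effectors, at 24.1% and 48.4%, were near these shares.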

How the data were processed

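RNA-seq libraries were made by the authors from poly(A)-selected RNA of HepG2 cells with a directional kit, and 50 nt reads were trimmed, aligned to GRCh37 with STAR and counted per gene of Ensembl release 75 with featureCounts. The values deposited are raw read counts per gene, without normalization, in 1 table of 16389 genes and 12 libraries. The authors left out genes with a mean of fewer than 10 reads, which was checked on the values, and the strand setting of the counting is not given in the sources used here. No sequencing batch is named.

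Groups were taken from the sample labels. Each comparison of 3 against 3 libraries was fitted with edgeR 4.0.16 in R 4.3.3 (TMM factors, quasi-likelihood F test) on every gene that averaged 10 counts or more in the 6 libraries compared, and the interaction of glucose and VPA on the 12 libraries. p-values were adjusted over all genes tested (Benjamini-Hochberg) and genes with an FDR up to 0.05 were called. CPM values were scaled with TMM factors, and CPM per kb used the summed exons of GENCODE release 44 on GRCh37, where all 50 members were found by identifier. Total counts ran from 29798442 to 45572694. Groups with at most 3 reads were given as lower bounds against a floor of 3 reads over the group, or as ratios with exact 95% counting intervals, which cover counting error only. Promoters came from RefSeq (GRCh38.p14), and counts and figures were made with Python 3.11.15, pandas 2.3.3, scipy 1.17.1 and matplotlib 3.10.9.

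Values in every library were given, in each family, for the most abundant gene per kb, up to 5 genes with the largest VPA change among those called, and up to 2 with the smallest FDR in each glucose comparison, and for EPHB4 and NTN4, chosen after their values were seen. From other lists the 3 genes with the largest change in HGV against HG could be named. The members, the gene lists and these rules were chosen with earlier results of these data known. Replicate numbers were checked for pairing. The correlations of same-numbered libraries were -0.26, -0.161 and 0.005 between LG and HG, 0.321, 0.236 and -0.243 between HG and HGV, 0.026, 0.43 and -0.26 between LG and LGV, and -0.019, 0.275 and 0.073 between LGV and HGV, so the numbers were not used to pair libraries. Alternatives were other scaling factors, other filters, the Wald test of DESeq2 1.42.0, replicate number as a block, 1 fit of 12 libraries, an FDR of 0.01, leaving out each library in turn, the longest transcript as length, and, added after seeing the data, a filter on the untreated group outside each VPA comparison. The edgeR fit was tested on simulated data.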

Additional observations from a re-analysis of the deposited data

How the results depend on the processing

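No called member changed direction under any alternative run. Some settings filter out some members. Of the VPA calls 29 of 38 in high and 23 of 29 in low glucose were tested in every setting at an FDR of 0.05, and 26 and 19 of these were called in all of them. Of the glucose calls 21 of 23 with and 10 of 11 without VPA were tested in every setting, and 12 and 4 were called in all. At an FDR of 0.01, HG against LG called 1852 genes and 6 members, HGV against LGV 4263 genes and 15 members, and the interaction 1 gene. The interaction called 161 genes and 1 member with DESeq2, 1 gene with library size only and 13 genes with the replicate block. The causes of these differences were not tested. When each library was left out in turn, the calls ranged from 1933 to 5338 genes and 5 to 14 members in HG against LG, and from 4516 to 7228 and 15 to 27 in HGV against LGV. For VPA they ranged from 6083 to 7793 genes and 35 to 37 members in high glucose, and from 4942 to 6986 and 25 to 29 in low glucose. For the interaction they ranged from 1 to 217 genes and stayed at 0 members, with 217 genes without LG replicate 2, 67 without LG replicate 3, 21 without LGV replicate 1, 2 without HG replicate 2 and 1 without any other library. Same-numbered libraries did not resemble each other in every pair, so the numbers were not read as pairs, and with the replicate block 40 members and 8229 genes were called for VPA in high glucose, 31 and 6971 in low glucose, 9 and 3351 for glucose without VPA, 28 and 7308 with VPA, and 0 members for the interaction. The HG against LG calls of PLXND1 and ROBO1 were lost with the block. With the longest transcript as length, the mean level over all 12 libraries was 54.8 CPM per kb for SEMA6B, 35.8 for PLXNB2, 182 for EFNA1 and 25.2 for ROBO1. These means are not to be set against the LG levels given above. With library size only, the summed levels per kb were 139.9 for semaphorins, 94.6 for plexins and neuropilins, 111.8 for ephrins and 83.4 for Eph receptors in HGV, and 84.8 for plexins and neuropilins and 14.5 for Slits and Robos in LG. Depth limited the VPA changes of EPHB6 and UNC5A, and that of NTNG2 in low glucose, which are known only as a bound or a wide interval.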
